A study of Homo sapiens with 18 samples.

Results

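The promoter sites of the H3K27me3 table were 601 of its 1140 sites (52.7%). H3K27me3, trimethylation of lysine 27 of histone H3, is deposited by Polycomb repressive complex 2 and marks silenced genes. H3K4me3, trimethylation of lysine 4, marks the starts of active genes, and a start that carries both is called bivalent. Bivalent starts are best known at developmental regulators, which Polycomb keeps silent in cells of another lineage. Chromatin came from V16D, a line of prostate cancer cells made castration-resistant from LNCaP. The cells had been transduced with a control lentivector (V16D/CTL) or with a lentivector that overexpresses the long noncoding RNA H19 (V16D/H19), in 3 biological replicates per group. Each replicate gave an H3K4me3, an H3K27me3 and an input library, and both marks of a replicate were called against that one input. H19 was driven from a lentivector in a single cell line, which limits both groups as a model.

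The sites were chosen by measured H3K27me3 values and by position. The table lists regions that the authors' comparison of the 6 H3K27me3 libraries put past its threshold, and the promoter sites are those it annotates within 5 kb of a transcription start. The H3K27me3 values of these sites are therefore given as a description, without a test. Of the 601 sites, 525 were annotated within 1 kb of a start, 23 at 1-2 kb, 20 at 2-3 kb, 16 at 3-4 kb and 17 at 4-5 kb. Concentration is the authors' log2 mean normalised read count of a group, and a difference is V16D/H19 minus V16D/CTL. The 3 sites just inside the distance limit belonged to C1QTNF8 (4608 bases), CERK (4692 bases) and RAP1GAP2 (4851 bases), with differences of -0.60, -1.41 and -0.58. The 3 just outside belonged to TIAM2 (5076 bases), ACTRT2 (5108 bases) and PPIC (5132 bases), with differences of -0.80, -0.36 and -0.59. The sites named 551 distinct genes, and the gene identifier of 600 sites matched RefSeq. Among the matches were 498 sites of protein-coding genes, 79 of long noncoding RNAs and 14 of microRNAs.

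The luminal prostate markers KRT8, KRT18, KLK2, KLK3, TMPRSS2 and HOXB13 each had an H3K4me3 peak within 1 kb of the gene or inside it in all 6 libraries, and an H3K27me3 peak in 0. Within 1 kb of the RefSeq start, which was at hand for 3 of the 6, KLK2 and KLK3 had the H3K4me3 peak in all 6 libraries and KRT8 in 0. The peak lists held 20048 to 21934 H3K4me3 peaks and 55060 to 72289 H3K27me3 peaks per library. The H3K27me3 lists covered 42.3 to 48.4 Mb in V16D/H19 and 45.1 to 62.2 Mb in V16D/CTL. Read depth was not used here, and its part in these list sizes and in the results was not tested. In a bulk library, fewer cells with a mark and less of the mark per cell cannot be told apart.

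The following stretches of 250 bases directly upstream of a RefSeq start (GRCh38.p14) were chosen to show the range of base composition behind the results. They belong to the site with the lowest difference (SBK3), a site with a large negative difference that carried H3K4me3 (PPP1R14C) and a site that was higher in V16D/H19 (GNAI1). The others are the site of highest concentration (UNCX), a site with H3K4me3 only in the V16D/H19 libraries (SMOC1) and a neural factor of the study's neuroendocrine list (POU3F2). Each is written 5′ to 3′ on the strand of the gene, and capitals mark the CG dinucleotides that make up CpG islands.
SBK3 (chr19:55545544-55545793, minus strand): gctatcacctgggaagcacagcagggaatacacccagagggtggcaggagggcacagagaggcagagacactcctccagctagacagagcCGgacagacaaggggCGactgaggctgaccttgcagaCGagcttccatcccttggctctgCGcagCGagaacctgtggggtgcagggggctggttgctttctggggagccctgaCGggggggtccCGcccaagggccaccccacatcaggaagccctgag
PPP1R14C (chr6:150142794-150143043, plus strand): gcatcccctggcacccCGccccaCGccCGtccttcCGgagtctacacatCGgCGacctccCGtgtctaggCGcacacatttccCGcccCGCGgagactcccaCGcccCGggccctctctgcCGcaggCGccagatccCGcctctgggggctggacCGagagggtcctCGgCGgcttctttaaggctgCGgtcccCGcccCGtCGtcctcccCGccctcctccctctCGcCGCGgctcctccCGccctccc
GNAI1 (chr7:80134581-80134830, plus strand): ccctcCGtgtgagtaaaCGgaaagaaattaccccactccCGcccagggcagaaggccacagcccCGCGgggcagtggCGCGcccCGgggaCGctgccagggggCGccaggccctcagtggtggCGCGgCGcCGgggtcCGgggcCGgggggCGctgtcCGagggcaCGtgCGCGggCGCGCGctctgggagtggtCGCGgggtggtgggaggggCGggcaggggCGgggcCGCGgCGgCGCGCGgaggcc
UNCX (chr7:1232622-1232871, plus strand): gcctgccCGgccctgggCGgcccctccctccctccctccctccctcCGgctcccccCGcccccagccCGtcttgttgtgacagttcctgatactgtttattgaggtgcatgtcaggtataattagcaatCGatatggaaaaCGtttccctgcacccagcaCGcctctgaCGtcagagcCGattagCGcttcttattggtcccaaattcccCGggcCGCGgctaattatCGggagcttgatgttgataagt
SMOC1 (chr14:69879166-69879415, plus strand): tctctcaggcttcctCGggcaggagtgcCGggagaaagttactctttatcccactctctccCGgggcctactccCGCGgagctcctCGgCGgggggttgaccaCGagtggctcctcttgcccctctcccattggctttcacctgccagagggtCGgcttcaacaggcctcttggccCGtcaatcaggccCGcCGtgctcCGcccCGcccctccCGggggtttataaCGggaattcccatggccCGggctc
POU3F2 (chr6:98834324-98834573, plus strand): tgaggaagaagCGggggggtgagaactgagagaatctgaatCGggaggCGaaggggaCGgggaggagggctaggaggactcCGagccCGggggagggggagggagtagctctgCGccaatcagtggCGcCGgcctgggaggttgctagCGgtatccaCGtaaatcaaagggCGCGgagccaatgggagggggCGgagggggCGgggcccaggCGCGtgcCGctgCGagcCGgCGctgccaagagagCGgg

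These stretches held 7 CG dinucleotides at SBK3, 28 at PPP1R14C, 34 at GNAI1, 15 at UNCX, 17 at SMOC1 and 22 at POU3F2. The ratio of observed CG to that expected from the C and G content was 0.27 at SBK3 and 0.65 to 0.91 at the other 5. RefSeq sequence was at hand for 15843 protein-coding starts, with a single start per gene, and 263 of them lay inside the promoter sites. In windows of 300 bases around those 263 starts the median ratio was 0.81 and the median G and C content 68.0%, against 0.76 and 62.7% over all 15843. A ratio of 0.6 or more was found at 204 of the 263 starts (77.6%) and at 65.8% of all starts. The 169 starts in sites with H3K4me3 in all 6 libraries had a median ratio of 0.84, and the 51 in sites with no H3K4me3 peak had 0.65. By these medians the starts in sites with H3K4me3 in all 6 libraries were the richer in CG. The 6 stretches shown did not all follow this order. SBK3, whose site had no H3K4me3 peak, had the lowest ratio. UNCX, with a peak in 1 library, had 0.74, above the 0.65 of SMOC1, with a peak in 3.

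Of the 601 promoter sites, 582 had a lower H3K27me3 concentration in V16D/H19 and 19 a higher one. The median concentration was 7.38 in V16D/CTL against 6.84 in V16D/H19, and the median difference was -0.55, with a range from -1.85 to 1.45. Among the other 539 sites of the table the median difference was -0.61, and 78 of them (14.5%) were higher, against 3.16% of the promoter sites. Only 52 promoter sites were lower by 1 or more on the log2 scale, while 316 lay between -1 and -0.5 and 214 between -0.5 and 0. The authors' concentrations are group means and carry no spread between libraries here. They are normalised read counts and do not measure the total amount of the mark. By Western blot the paper reported increased H3K27me3 in V16D after transient H19 overexpression. How that relates to the lower values at these sites was not tested.

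The difference changed with the level. The 151 sites with the lowest V16D/CTL concentration (3.56 to 6.67) had a median difference of -0.86 and a median width of 4538 bases. The 150 with the highest (8.13 to 10.42) had -0.38 and 19183 bases. A weak site had to differ by more to enter the table, so this order is partly fixed by how the sites were chosen. No promoter site had a difference between -0.19 and 0.36, the values nearest to 0 on either side.

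**Figure D1:**
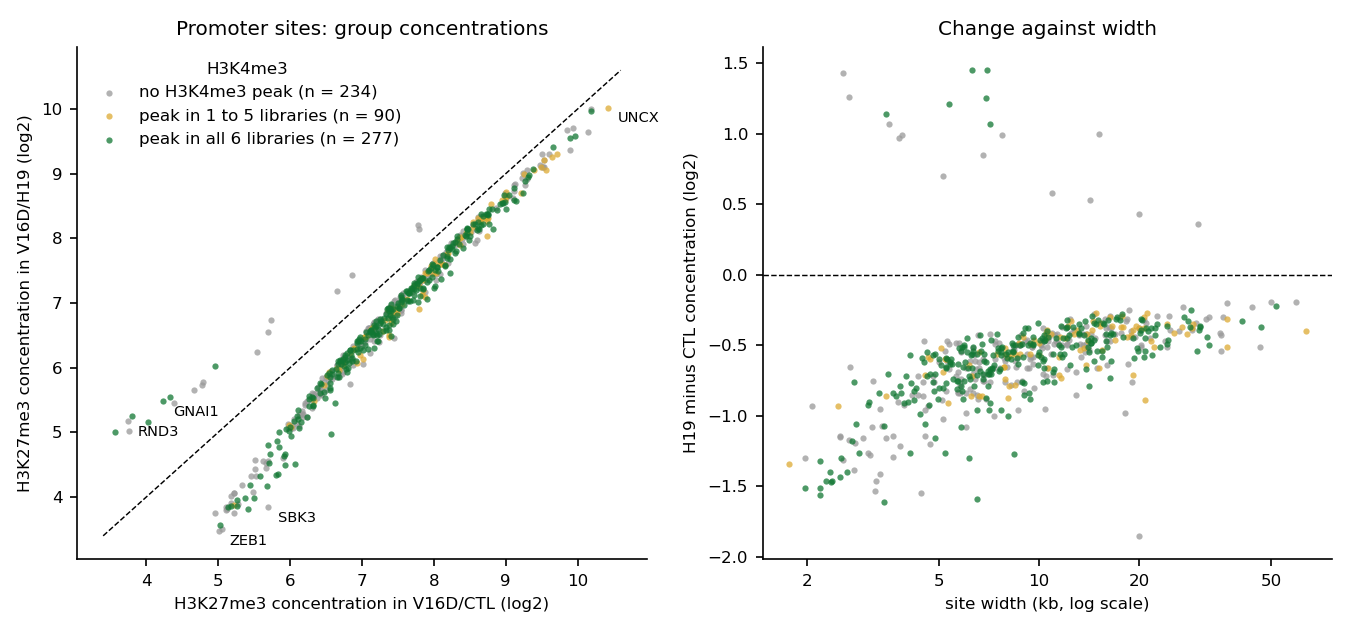
Left, H3K27me3 concentration (the authors' group mean, log2) of the 601 promoter sites in V16D/CTL (x) and V16D/H19 (y), with equality as a dashed line and colour giving the number of libraries with an H3K4me3 peak. Right, the difference (log2) against site width (kb, log scale). 582 points lie below equality and 19 above, and the narrow sites hold most of the large negative differences.

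The promoter sites were 1762 to 63622 bases wide, with a median of 8911, and 76 were wider than 20 kb. The 10 sites of highest concentration held developmental factors and other genes. UNCX, a homeobox factor of the developing somites, had the widest site and the highest concentration (chr7:1208363-1271984, 10.42 in V16D/CTL against 10.02 in V16D/H19). The peak of UNCX with the highest fold over input reached 6.15, 5.43 and 5.89 in the V16D/CTL libraries and 4.93, 5.63 and 5.26 in V16D/H19. The groups overlapped at UNCX, whose concentration difference was -0.40. The site of DLX5, a homeobox factor of limb and forebrain that shares the site with DLX6 (chr7:96981640-97033403), had 10.19 in V16D/CTL against 9.97 in V16D/H19. Its H3K27me3 folds were 5.34, 5.19 and 5.79 in V16D/CTL against 5.28, 4.82 and 5.47 in V16D/H19, so these groups overlapped too. ZIC4, a zinc-finger factor of the cerebellum, had 10.19 in V16D/CTL against 10.00 in V16D/H19. PRDM16, a zinc-finger regulator of brown fat and neural stem cells, had 10.15 in V16D/CTL against 9.64 in V16D/H19. FOXF1, a forkhead factor of gut and lung mesoderm, had 9.89 in V16D/CTL against 9.56 in V16D/H19, and PAX6-AS1, whose site also spans the start of the eye factor PAX6, had 9.72 in V16D/CTL against 9.30 in V16D/H19. The remaining sites among the 10 highest belonged to SATB1-AS1, PREX1, LOC101928416 and RAB37, with differences of -0.37, -0.23, -0.54 and -0.19. At all 10 the difference was smaller in size than the median of the 601 sites, and 6 of them had no H3K4me3 peak in V16D/CTL.

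The sites with the largest negative differences were mostly narrow and less marked. SBK3, which encodes a protein kinase, had the lowest difference at -1.85 (chr19:55543571-55563594, 5.69 in V16D/CTL against 3.84 in V16D/H19). Its site was not narrow, at 20024 bases, but H3K27me3 peaks covered little of it. They covered 720, 1359 and 2246 bases in V16D/CTL against 0, 1074 and 449 in V16D/H19. H3K27me3 folds at SBK3 were 4.06, 3.3 and 3.98 in V16D/CTL against no peak, 3.32 and 3.76 in V16D/H19. No library had an H3K4me3 peak there. RGS17, a regulator of G-protein signalling, had a difference of -1.61, with H3K27me3 folds of 3, 3.9 and 3.91 in V16D/CTL against 3.84, no peak and no peak in V16D/H19. PPP1R14C, an inhibitor of protein phosphatase 1, had -1.59, with 3.75, 3.42 and 3.69 in V16D/CTL against no peak, 3.58 and no peak in V16D/H19. The H3K4me3 folds at PPP1R14C were 18.4, 22.9 and 23.4 in V16D/CTL against 34.9, 39 and 24.7 in V16D/H19, so that each V16D/H19 library lay higher. COL5A1, a fibrillar collagen chain, had a peak of H3K27me3 in all 6 libraries, at 5.16, 5.77 and 5.72 in V16D/CTL against 3.28, 3.1 and 3.97 in V16D/H19. The 2 groups did not overlap at COL5A1. ZEB1, a repressor of epithelial genes that drives the epithelial to mesenchymal transition, had a site within its first kilobases (chr10:31383110-31386313) with 5.01 in V16D/CTL against 3.48 in V16D/H19. Its H3K27me3 folds were no peak, 3.47 and 3.11 in V16D/CTL against no peak, no peak and no peak in V16D/H19. The others of the 10 belonged to CACNA2D1 (a calcium channel subunit), FAM167A, SAMD4A (a translational repressor), TMEM74B and CHST2 (a sulfotransferase), with differences from -1.55 to -1.46. CACNA2D1 had an H3K27me3 peak in only 1 library of each group. CHST2 shared its value with 2 further sites.

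The narrowest sites, at ZNF536, FAM167A, LINC02910, COL5A3 and SAMD4A, were 1762 to 2183 bases wide and had differences from -1.51 to -0.93. An H3K27me3 peak was present in all 3 V16D/CTL libraries and in no V16D/H19 library at 11 sites. These lay at S100A11, BMERB1, CCDC172, PHACTR2, NKX2-8, GPM6B, TNS1, DAZL, DPYSL2, PYROXD1 and LMO2, and had a median width of 2868 bases. The NKX2-8 site, at a homeobox factor of the foregut, had H3K27me3 folds of 3.79, 3.22 and 3.95 in V16D/CTL. At TNS1, a focal adhesion protein, they were 4.02, 3.82 and 3.73, and at LMO2, a cofactor of blood formation, 3.76, 3.19 and 3.86. H3K4me3 peaks stood in all 6 libraries at 4 of the 11 and in none at the other 7. An H3K27me3 peak was present in all 6 libraries at 523 of the 601 sites, so most sites kept a peak call.

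The extent of H3K27me3 inside the promoter sites was lower in every V16D/H19 library. Peaks covered 58.5%, 65.0% and 66.3% of the length of the sites in V16D/CTL against 43.8%, 46.1% and 46.2% in V16D/H19. The group means were 63.3% ± 4.18 and 45.4% ± 1.36 (SD, n = 3). The median over sites of the highest fold over input was 4.65, 4.62 and 4.68 in V16D/CTL against 4.15, 4.10 and 4.19 in V16D/H19. The lowest covered share in V16D/CTL was in replicate 1, whose H3K27me3 list was also the shortest. H3K27me3 regions near a start outside the table, with a peak in at least 2 libraries, were covered over 52.9% ± 5.82 of their length in V16D/CTL against 44.3% ± 2.43 in V16D/H19 (SD, n = 3). Around the annotated start, the mark peaked just inside the gene. At 250 bases downstream, 63.4%, 70.0% and 74.5% of the sites lay under a peak in V16D/CTL against 47.9%, 53.7% and 51.1% in V16D/H19. At 9750 bases downstream the shares were 18.6%, 22.0% and 23.3% against 14.3%, 17.1% and 15.8%.

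**Figure D2:**
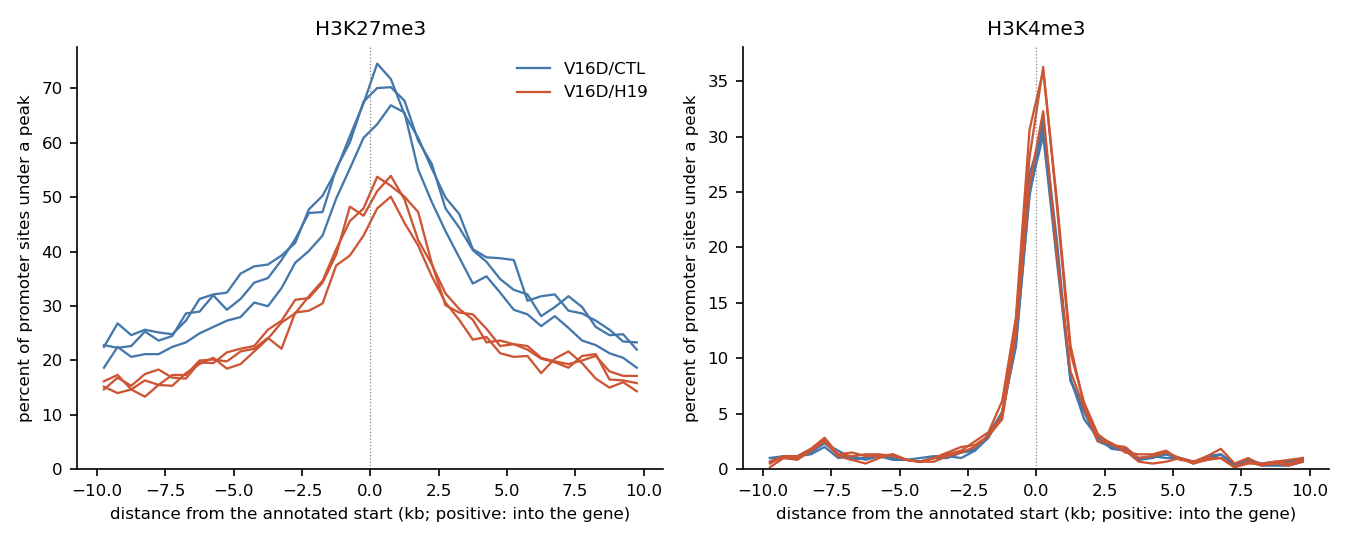
Percent of the 601 promoter sites under an H3K27me3 peak (left) and an H3K4me3 peak (right) at each distance from the annotated start (kb, positive into the gene), with 1 line per library. The V16D/H19 lines lie below V16D/CTL for H3K27me3 over the whole span, and the H3K4me3 lines of 2 V16D/H19 libraries lie above the others at the start.

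The 19 sites with a higher concentration in V16D/H19 had a lower starting level, with a median of 4.77 in V16D/CTL against 5.74 in V16D/H19. STON2, which acts in endocytosis at synapses, had 3.56 in V16D/CTL against 5.01 in V16D/H19, with no H3K27me3 peak in V16D/CTL and folds of 2.94, no peak and 3.48 in V16D/H19. MSI1, an RNA-binding protein of neural stem cells, had 3.80 in V16D/CTL against 5.25 in V16D/H19 (chr12:120367491-120374479), with folds of no peak, 3.14 and no peak in V16D/CTL against 3.42, 3.45 and 3.6 in V16D/H19. GNAI1, an inhibitory G-protein subunit, had 4.23 in V16D/CTL against 5.48 in V16D/H19 (chr7:80132073-80139007), with no peak in any V16D/CTL library and 3.42, 3.28 and 3.29 in V16D/H19. RND3, a small GTPase that counters RhoA signalling, had 3.74 in V16D/CTL against 5.17 in V16D/H19 (chr2:150475540-150478100), with no peak in V16D/CTL against 3.9, 3.24 and 4.28 in V16D/H19. BMPER, a modulator of BMP signalling, had no peak in V16D/CTL and folds of 3.9, 3.22 and 3.69 in V16D/H19. GNAI1, RND3 and BMPER were the 3 sites with a peak in all V16D/H19 and no V16D/CTL library.

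Of the other sites among the 19, EPHA7, an ephrin receptor of axon guidance, had 4.33 in V16D/CTL against 5.54 in V16D/H19, and ELAVL2, a neuronal RNA-binding protein, had 4.96 in V16D/CTL against 6.03 in V16D/H19. ADGRL2, an adhesion receptor of synapses, had 2 sites, with differences of 0.36 and 1.0. The synaptic adhesion gene NRXN3 had 0.85 and GABRA6, a subunit of the GABA receptor, 0.53. The others were MIR5197, LINC02043, CSMD1, EYA2, EBF1, MIR7515, LINC00540 and MS4A2. H3K4me3 stood in all 6 libraries at 6 of the 19 (STON2, MSI1, GNAI1, EPHA7, LINC02043 and ELAVL2) and in no library at the other 13.

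H3K4me3 was not used to choose the sites, and it divided them into 2 main kinds. An H3K4me3 peak shared at least 1 base with 277 sites in all 6 libraries and with 234 sites (38.9%) in none, which left 90 sites with a peak in 1 to 5 libraries. The sites with H3K4me3 in all 6 libraries had a median width of 8075 bases, a V16D/CTL H3K27me3 concentration of 7.38 and a difference of -0.57. The sites with none had 8936 bases, 7.17 and -0.54, so both kinds were lower in H3K27me3 by a similar amount. Sites with a peak in only some libraries were wider (11597 bases) and more marked (7.90 in V16D/CTL, as a median).

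The number of promoter sites with an H3K4me3 peak was 309, 305 and 302 in V16D/CTL against 339, 339 and 313 in V16D/H19. There was no overlap (mean 305 ± 3.51 against 330 ± 15.0, SD, n = 3). The two-sided exact permutation test gave p = 0.1, the smallest that 3 against 3 libraries allow. The share of site length under H3K4me3 was 4.82%, 4.53% and 4.68% in V16D/CTL against 5.58%, 5.80% and 4.74% in V16D/H19, which overlapped (exact permutation test, p = 0.2). V16D/H19 replicate 3 lay near V16D/CTL in both measures, and its H3K4me3 list was the shortest of the 6. Benjamini-Hochberg adjustment over the 11 library comparisons computed, which include the subsets and the other regions, gave adjusted p = 0.22 for the number of sites and 0.275 for covered length (exact permutation tests).

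**Figure D3:**
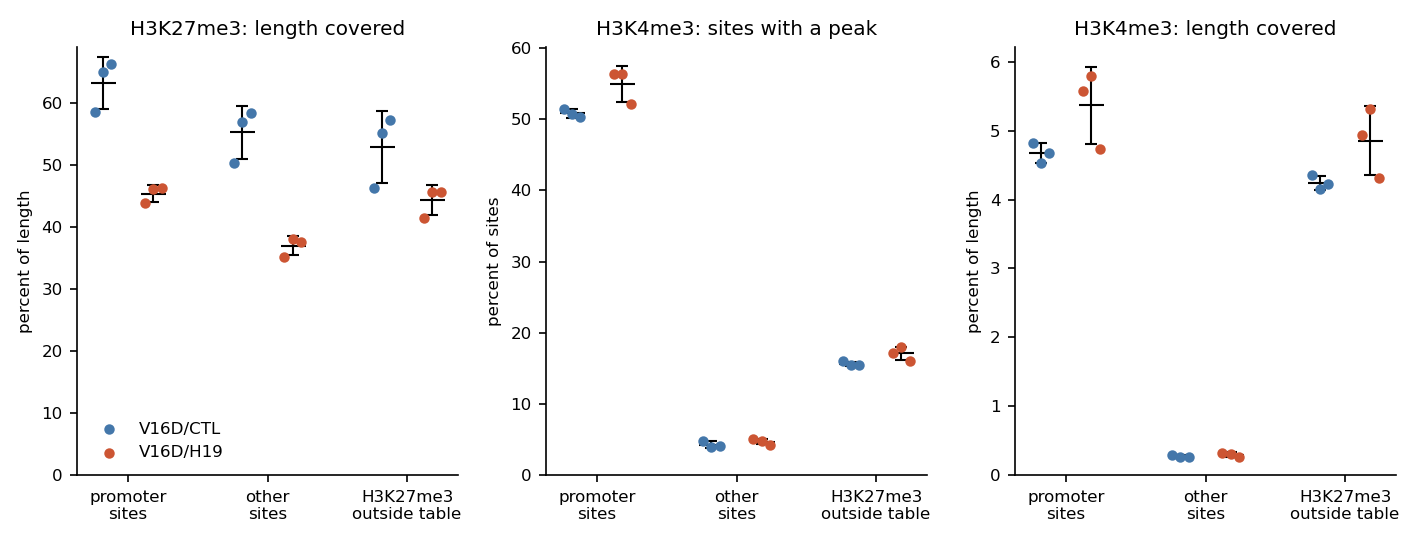
Values per library (points) with the mean and SD of 3 libraries (black) for promoter sites, other sites of the H3K27me3 table and H3K27me3 regions near a start outside the table. Panels give the percent of length under H3K27me3 peaks, the percent of sites with an H3K4me3 peak and the percent of length under H3K4me3 peaks. The V16D/H19 libraries have less H3K27me3 at the promoter sites, and 2 of 3 stand well above V16D/CTL in H3K4me3.

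Among the other 539 sites of the table, 26, 21 and 22 had an H3K4me3 peak in V16D/CTL against 27, 26 and 23 in V16D/H19. The lead of promoter over other sites in the share with an H3K4me3 peak was 46.5 percentage points in V16D/CTL against 50.3 in V16D/H19, a change of 3.73 points (exact permutation test, p = 0.1, adjusted p = 0.22, no overlap). At H3K27me3 regions near a start outside the table, 15.6% ± 0.316 had an H3K4me3 peak in V16D/CTL against 17.1% ± 0.938 in V16D/H19 (SD, n = 3, no overlap, exact permutation test, p = 0.1, adjusted p = 0.22). The promoter sites gave 50.8% ± 0.584 and 55.0% ± 2.50 (SD, n = 3). Regions outside the table therefore also had more H3K4me3 calls in V16D/H19, and whether the promoter sites differ from them was not tested.

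At 4 sites all 3 libraries of one group, and none of the other, had an H3K4me3 peak. KCNA1, a voltage-gated potassium channel of neurons, had H3K4me3 only in V16D/H19, with folds of 3.63, 5.31 and 6.05. SMOC1, a secreted matricellular protein, had 8.34, 8.87 and 7.38 in V16D/H19 and no peak in V16D/CTL, beside an H3K27me3 difference of -0.58. The H3K27me3 folds at SMOC1 were 4.24, 3.69 and 5 in V16D/CTL against 3.47, 3.91 and 3.96 in V16D/H19, which overlapped. LOC105375690 had H3K4me3 folds of 6.65, 5.21 and 3.22 in V16D/H19. In the opposite direction, the pseudogene ANKRD19P had 5.03, 7.18 and 5.17 in V16D/CTL and no peak in V16D/H19. More libraries had the peak in V16D/H19 at 65 sites, and more in V16D/CTL at 17. V16D/H19 replicates 1 and 2 also had the longest H3K4me3 lists (21934 and 21886 peaks). The same counts were not made over all H3K4me3 regions. Neither the 4 sites nor the 65 and 17 are therefore shown to be particular to promoter sites.

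H3K4me3 height was compared with limma on the log2 of the highest fold over input, centred on each library's median, over 15811 regions with a peak in all 6 libraries. Of these regions 304 lay at 281 promoter sites. No region at a promoter site passed an adjusted p of 0.05 (limma with Benjamini-Hochberg adjustment), against 1 of 15811 over all regions (0.00632%). Differences of about 1 on the log2 scale were mostly not detectable with 3 libraries per group, so the absence of calls does not show that H3K4me3 was equal. At an unadjusted p under 0.05 there were 37 regions at promoter sites, or 12.2%, against 6.82% of all regions. Of the 37, 26 were higher in V16D/H19 (8.55%, against 3.24% of all) and 11 lower (3.62%, against 3.58%). All 3 V16D/H19 libraries lay above all 3 V16D/CTL libraries at 33 regions (10.9%, against 5.58%) and below them at 14 (4.61%, against 6.4%). The difference was above 0 at 189 regions of promoter sites (62.2%, against 48% of all). The median log2 difference was 0.13 at promoter sites and -0.02 over all regions. The counts of regions higher in V16D/H19 stood above their background and those of lower regions did not, but no single region passed the correction. These counts were not made for H3K27me3 regions near a start outside the table. The larger share of higher regions is therefore not shown to be particular to the promoter sites among starts with H3K27me3.

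The 10 promoter sites with the smallest adjusted p are given by their folds over input, and none of them passed. OTP, a homeobox factor of the hypothalamus, had H3K4me3 folds of 40.3, 21 and 24.5 in V16D/CTL against 12.6, 13 and 11.5 in V16D/H19 (log2 difference -1.20 ± 0.30 (SE), adjusted p = 0.447, limma). TMEM74B, a membrane protein of little known function, had 13.3, 16.7 and 20.0 and 35.9, 33.5 and 34.5 in the same order (log2 difference 1.03 ± 0.29 (SE), adjusted p = 0.449, limma). OTP was lower in every V16D/H19 library and TMEM74B higher, while both were lower in H3K27me3. CERK, a ceramide kinase, had 3.95, 6.99 and 4.89 in V16D/CTL against 7.42, 14.9 and 15 in V16D/H19, and SNCAIP, a partner of alpha-synuclein, 9.01, 6.99 and 6.89 and 13.3, 19.3 and 12.8. PSD2, a guanine nucleotide exchange factor of the brain, had 8.54, 9.03 and 8.2 and 16.9, 14.9 and 17.6, and PRDM8, a neural zinc-finger factor, 5.61, 7.69 and 6.39 and 14, 14.6 and 9.75. At these 4 genes the groups did not overlap, and V16D/H19 was the higher. BHLHE22, a helix-loop-helix factor of cortical neurons, had 6.4, 5.08 and 3.25 and 10.4, 8.34 and 8.5, and FIBCD1, a chitin receptor, 13.3, 16.4 and 13.8 and 22.8, 36.4 and 22.8. HCN4, the pacemaker channel, had 6.37, 6.52 and 10.2 and 13.3, 22.8 and 9.27, which overlapped, and a region at LHX2-AS1 had 6.47, 4.35 and 7.52 and 7.83, 13.8 and 12. At 3 of these sites another region moved the other way in its mean difference. A second region at LHX2-AS1 had 25.1, 25.7 and 34.9 in V16D/CTL against 15.7, 23.4 and 21.7 in V16D/H19, lower in each V16D/H19 library (log2 difference -0.55 ± 0.30 (SE), adjusted p = 0.768, limma). The second regions of OTP (log2 difference 0.42) and PRDM8 (-0.32) overlapped between the groups. The adjusted p of these 10 ran from 0.447 to 0.624 (limma).

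**Figure D4:**
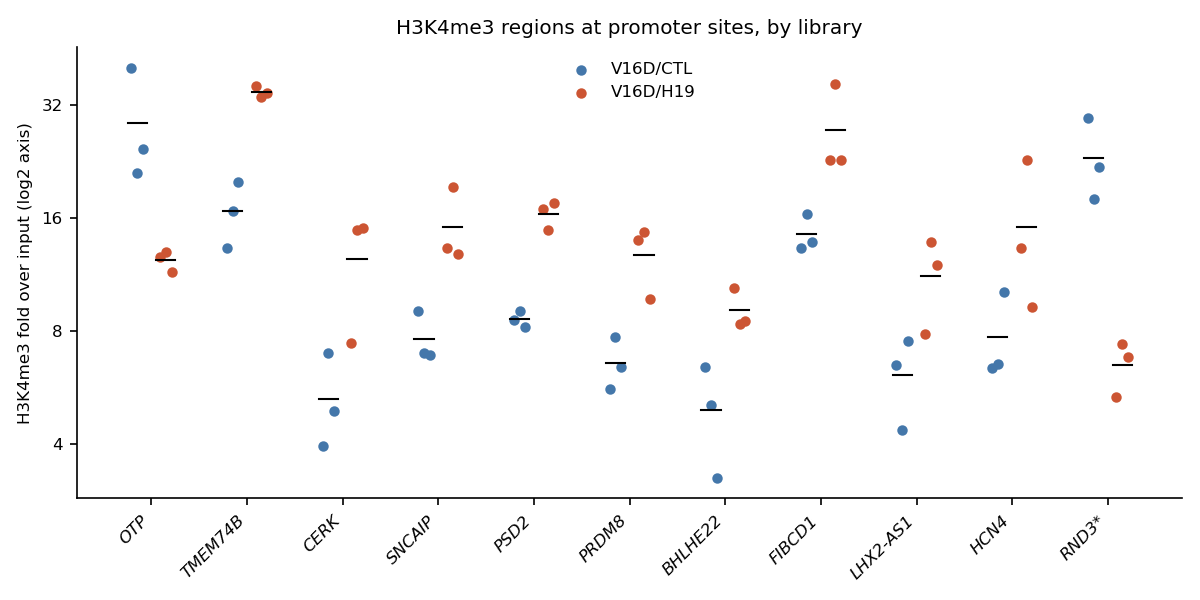
H3K4me3 fold over input (log2 axis) in each library (points, with group means as bars) for the region with the smallest adjusted p at each of 10 promoter sites, and for the region nearest to the RND3 site (asterisk, outside the site). OTP and RND3 are lower in all V16D/H19 libraries, and the other 9 have the higher mean in V16D/H19.

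The 1 region called over all 15811 lay 6395 bases from the RND3 site, at chr2:150484496-150487726. Its H3K4me3 folds were 29.5, 17.9 and 21.9 in V16D/CTL against 5.32, 7.38 and 6.80 in V16D/H19 (log2 difference -1.86 ± 0.29 (SE), adjusted p = 0.0439, limma). The call was lost in 10 of 11 other settings, each of the 6 libraries left out among them, while the log2 difference stayed between -2.95 and -1.71. The authors' comparison of H3K4me3 also listed a site that overlaps this region. Its concentration was 8.62 in V16D/CTL against 5.85 in V16D/H19, a difference of -2.77. The H3K27me3 site of RND3 itself had no H3K4me3 peak. At the GNAI1 site H3K4me3 folds were 33, 50.6 and 37.6 in V16D/CTL against 22.8, 21.7 and 34.6 in V16D/H19, and at EPHA7 35.9, 34.8 and 30.4 and 18.6, 25.7 and 21. EPHA7 was lower in each V16D/H19 library, while the GNAI1 groups overlapped. The groups also overlapped at STON2, MSI1, LINC02043 and ELAVL2, the other sites higher in H3K27me3 that carried H3K4me3. STON2 had 38.8, 49.3 and 39.1 in V16D/CTL against 36.2, 44.9 and 58.9 in V16D/H19. LINC02043 had 49.6, 55 and 30.1 and 57.3, 41 and 48.4 in the same order. MSI1 had 46.6, 39.5 and 64.4 and 46.5, 70.5 and 38.2, and ELAVL2 36.2, 35.2 and 22.8 and 34.9, 27.9 and 28.2.

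The table of H3K4me3 sites, which the authors' comparison chose in the same way, had a site at the same place as 76 promoter sites, in 77 pairs. In 62 pairs H3K4me3 was higher and H3K27me3 lower in V16D/H19, in 12 both were lower, in 3 H3K4me3 was lower and H3K27me3 higher, and in 0 both were higher. SMOC1 had the highest H3K4me3 difference, 3.12 (1.49 in V16D/CTL against 4.61 in V16D/H19). It was followed by CERK (2.30), LOC100129697 (2.12), SPEG (1.77), LOC105375690 (1.75) and CDH22, a neural cadherin (1.42). ANKRD19P had the lowest, -3.07, followed by GFY (-2.75), the endoderm factor SOX17 (-1.45) and NKX2-2, a factor of neural tube and pancreas (-1.29). Both members of a pair were chosen for their differences, so these counts are a description. H3K27me3 was lower at 582 of the 601 promoter sites, which left little room for pairs with higher H3K27me3. The share of all sites in the table of H3K4me3 that were higher in V16D/H19 was not computed. The 62 pairs are therefore not shown to exceed that share.

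The genes at the sites were counted in 14 families, from the annotated gene and from protein-coding starts inside the sites. Over all 20056 RefSeq protein-coding genes, 498 (2.48%) lay at a promoter site. The families of patterning factors had larger shares, with 45 of 141 homeobox and paired-box genes outside the HOX clusters (31.9%), 6 of 19 SOX genes (31.6%) and 15 of 62 basic helix-loop-helix genes (24.2%). HOX genes had 7 of 39 (17.9%), T-box genes 3 of 17 (17.6%), developmental zinc-finger genes 16 of 93 (17.2%) and forkhead genes 5 of 51 (9.80%). Axon guidance and adhesion genes had 20 of 240 (8.33%), receptors of developmental signals 5 of 60 (8.33%), ion channels 13 of 190 (6.84%), matrix genes 10 of 154 (6.49%), secreted signals 7 of 116 (6.03%) and neurotransmitter receptors 8 of 148 (5.41%). Only solute carriers, with 8 of 383 (2.09%), lay below the share over all genes. The sites of a family can be shared by neighbouring genes, and these shares were not tested. Family shares were not computed for H3K27me3 regions near a start outside the table. The larger shares are therefore not shown to be particular to the promoter sites among starts with H3K27me3.

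**Figure D5:**
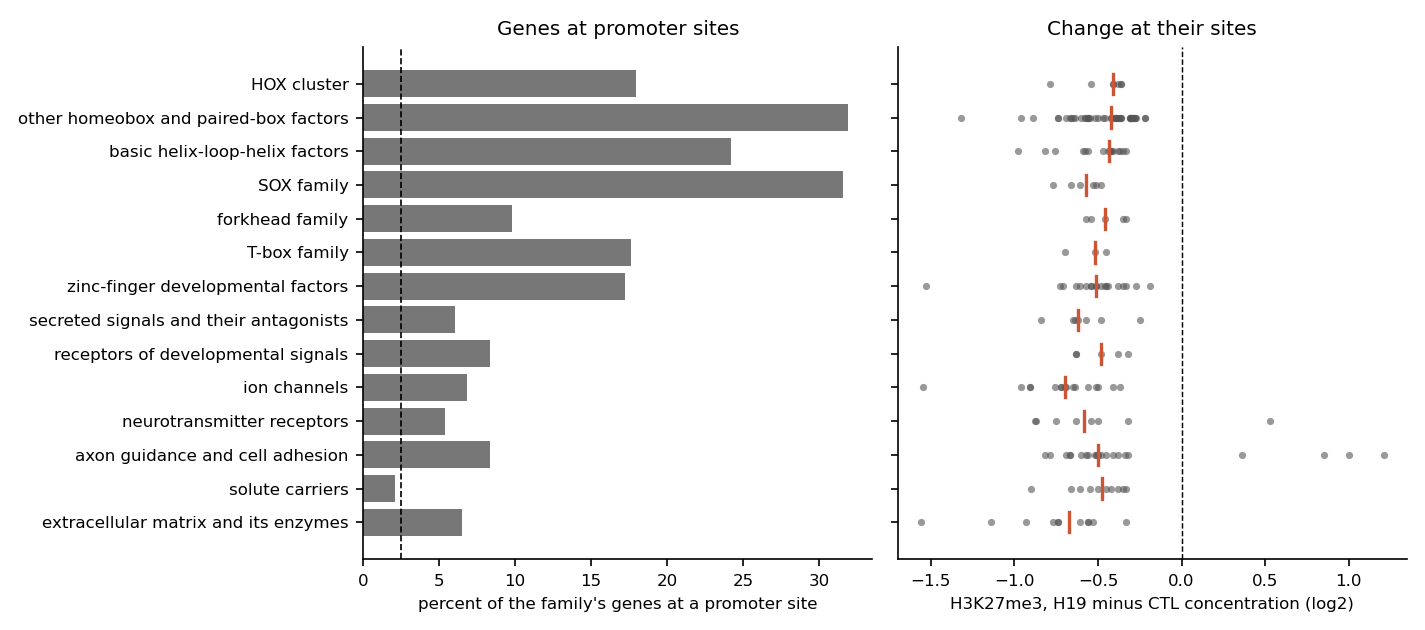
Left, percent of each family's RefSeq genes that lie at a promoter site, with the share over all protein-coding genes (2.48%) as a dashed line. Right, the H3K27me3 difference (log2) at the site of each of these genes, with the family median as a red bar. In 12 of 14 families every site is lower in V16D/H19.

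The 44 sites of homeobox and paired-box genes had a median V16D/CTL concentration of 8.56, against 7.37 over the 533 sites with a protein-coding gene, and a median difference of -0.42 against -0.56. All 44 were lower in V16D/H19, and 34 had H3K4me3 in at least 1 library. UNCX, DLX5, DLX6 and PAX6 led the family, and OTX2 (9.60), PAX3 (9.53) and LHX2 (8.92) followed among others. The 5 sites of HOX genes, which set position along the body axis, lay at HOXD12 and HOXD13 (9.31), HOXB8 (9.24), HOXD8 (9.05), HOXD10 and HOXD11 (8.73) and HOXC4 (6.98, with a difference of -0.79). They had a median difference of -0.41. Basic helix-loop-helix factors, which commit cells to neuron or muscle, were led by BHLHE23 (9.52), BHLHE22 (8.81), MYOD1 (8.66) and HEY2 (8.60). The median difference of their 16 sites was -0.44. The SOX sites were led by SOX17 (9.21), SOX5 (8.04), SOX1 (7.80) and SOX2 (7.78). All 6 SOX sites had H3K4me3 in at least 1 library, as had the 5 forkhead sites, led by FOXF1, FOXC1 (9.33), FOXD1 (9.15) and FOXF2 (8.77). The T-box sites lay at TBX18 (7.72), TBXT (6.93) and TBX5 (6.55). Among zinc-finger factors ZIC4 and PRDM16 were followed by PRDM13 (9.26) and ZIC1 (9.0).

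The families of signalling and of nerve function had median V16D/CTL concentrations from 6.93 at neurotransmitter receptors to 8.08 at receptors of developmental signals, which overlapped the range of the factor families (6.93 at T-box to 9.15 at forkhead genes). FGF9, a growth factor (9.66), WNT7A (7.91), the BMP antagonist NOG (7.85) and IHH (7.81) led the secreted signals, whose 7 sites had a median difference of -0.62. Among receptors GFRA1 (8.47), FZD10 (8.13) and PDGFRA (8.08) led, and DLL4 (7.30), a Notch ligand counted with the Notch receptors, came next. Ion channel sites had a median difference of -0.70 and included the potassium channels KCNC4 (8.19), KCNA1 (8.15) and KCNH1 (7.72). Neurotransmitter receptors were led by P2RY1 (8.77), SSTR2 (7.15), GRM3 (7.01) and HTR7 (6.98). Of their 8 sites 7 were lower in V16D/H19, the exception being GABRA6. Axon guidance and adhesion genes held 4 of the 19 higher sites and 18 lower ones, led by ADGRA1 (9.30), NTNG2 (8.68), SLIT2 (8.46) and CDH22 (7.88). The solute carrier sites, led by the vesicular GABA transporter SLC32A1 (9.11), the glutamate transporter SLC1A2 (8.72), SLC6A6 (8.45) and the dopamine transporter SLC6A3 (7.74), had H3K4me3 at only 2 of 10. Matrix genes were led by VCAN (8.01), COL5A1 (7.70 at its second site), COL19A1 (7.13) and COL1A1 (6.84), with a median difference of -0.68.

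Of 19 genes that the study names as neuroendocrine, 8 had a promoter site, all lower in V16D/H19. The study chose most of that list on these libraries, so the direction is no independent evidence. H3K4me3 folds at POU3F2, a factor of neural progenitors, were 17.7, 14.8 and 14.3 in V16D/CTL against 21.1, 22.5 and 7.39 in V16D/H19. At ETV5, a factor of FGF signalling, they were 20.5, 14.5 and 15.1 and 28.3, 30.6 and 21.2, and at FGF9 11.7, 13.5 and 15.2 and 10.8, 8.92 and 9.27. H3K4me3 was higher in all V16D/H19 libraries at ETV5, lower in all at FGF9 and overlapped at POU3F2. The SOX2 site had 20.2, 15.3 and 27 and 23.2, 21.6 and 16.9, MYT1 had 25.8, 28.1 and 20.3 and 32.7, 27.9 and 23.2, and ONECUT1 had 22.8, 46.5 and 29.7 and 21.3, 26.6 and 22.8. RUNX1T1 had 20.6, 19.2 and 16.6 in V16D/CTL against 15.2, 15.6 and 16.8 in V16D/H19. The groups overlapped at SOX2, MYT1, ONECUT1 and RUNX1T1, and HOXD10 had no H3K4me3 peak.

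Of the 14 sites at microRNA genes, 12 were lower in V16D/H19, and 11 had no H3K4me3 peak. Mature sequences (RefSeq, GRCh38.p14) are given for 3 of them, with the seed, bases 2 to 8, in capitals.
miR-200a-3p: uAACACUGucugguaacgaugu
miR-449c-5p: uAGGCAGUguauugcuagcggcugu
miR-139-5p: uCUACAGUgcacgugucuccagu
The 3 seeds differ from one another. The miR-200 family is known to hold down ZEB1, and both genes had a promoter site. The MIR200A site (6588 bases wide) had 6.57 in V16D/CTL against 5.95 in V16D/H19, and no H3K4me3 peak inside it in any library. A site of the H3K4me3 table that overlaps it (chr1:1157478-1170307) had an H3K4me3 concentration of 7.32 in V16D/CTL against 6.83 in V16D/H19. The peak lists and that table thus differ at the MIR200A site, and the reason was not tested. The MIR449C site, at a microRNA of ciliated epithelium, had 8.05 and 7.55, with H3K4me3 in all 6 libraries. The MIR139 site had 6.55 and 5.94.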

How the data were processed

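H3K4me3 and H3K27me3 were profiled by ChIP-seq in 3 V16D/CTL and 3 V16D/H19 replicates, grouped by sample title, which the labels call biological triplicates. The 12 peak lists deposited by the authors were called per library with MACS2 against the input of the same replicate (hg38 and tool names from the submitters' processing notes, versions not given in the sources used here). Each deposited list gives a peak score, a fold over input (a ratio) and −log10 p and q. The deposited DiffBind tables, annotated with ChIPseeker, give log2 concentrations per group as the authors' means. Their fold, p-value and FDR columns are the authors' own comparison and were not used. The sources used here give no counts per library, so no count test or interval was computed.

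Peaks of the 6 H3K4me3 lists were merged where they shared 1 base, and a region's value in a library was its highest fold. Library values were compared with two-sided exact permutation tests over 20 assignments. Region values were compared with limma 3.58.1 (R 4.3.3) on log2 fold, median-centred, Benjamini-Hochberg adjusted over 15811 regions. The fit was tested on simulated data. A first simulation with every changed region moved by 1 on the log2 scale recovered none of them, and the simulation was then widened to mix changes of 1 to 4. There most changes of 2 or more were recovered and few of 1, with a small number of unchanged regions called. Files were joined with Python 3.11.15 and pandas 2.3.3. Sequences and gene classes came from RefSeq on GRCh38.p14, whose starts are 1 per gene.

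The sites and gene lists were chosen with earlier results of these data known. Named sites are the 10 lowest and 10 highest differences, the 10 highest V16D/CTL concentrations, the 5 widest and 5 narrowest, and the 10 smallest adjusted p of H3K4me3. Also named are the neuroendocrine genes, sites with H3K4me3 in 1 group only, those at the distance limit, and the 4 highest of each family, of which 1 is not reported here. Other sites in the text, such as those with H3K27me3 peaks in 1 group only, pairs with the H3K4me3 table and microRNA sites, were named after their values were seen. Alternatives were other overlaps, a −log10 q of 10 or more, lists of equal length, sites within 1 kb, omission of chromosome 8, other scalings, a replicate block and each library left out.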

Additional observations from a re-analysis of the deposited data

How the results depend on the processing

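The 3 library comparisons kept their direction in every alternative. Their p could not fall below 0.1 with 2 or 3 libraries per group (0.25 for sign flips), so it says nothing of stability. With each library left out in turn, the difference in sites with an H3K4me3 peak ran from 20.7 to 33.7, that in covered length from 0.481 to 1.01 percentage points and the lead of promoter over other sites from 3.07 to 4.95 points. With at least 50% of a peak required inside the site, the groups overlapped in the number of sites (exact permutation test, p = 0.2), and with lists of equal length they no longer overlapped in covered length (p = 0.1, exact permutation test). The called H3K4me3 regions at promoter sites stayed at 0 in 10 of 11 alternatives. With −log10 q in place of fold, 1 was called, at PSD2 (log2 difference 1.53, adjusted p = 0.0423, limma), and the cause was not tested. Over all alternatives the adjusted p of the 10 named regions ran from 0.0423 to 0.844 (limma). With each library left out, the count stayed at 0. In H3K4me3 fold over the 15811 regions, same-numbered replicates did not deviate together, with correlations of -0.000849, 0.026 and 0.0195. These values do not show how the replicates were prepared, and H3K27me3 was not examined in this way. With the replicate block the 3 library values were 25 sites, 0.695 and 3.73 points, at p = 0.25 each (exact sign flips, the smallest they allow), and 0 regions were called. Counts of unadjusted and non-overlapping regions were added after the data were seen. Peak lists carry no counts, and in its test on simulated data limma recovered few changes of 1 on the log2 scale where larger ones were mixed in, and none where all were of that size.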

Other observations

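The promoter sites were spread over 23 chromosomes. Chromosome 3 held the most, 66 of its 128 table sites, followed by chromosome 1 with 53 of 102 and chromosome 17 with 43 of 73. On chromosome 8 only 35 of 107 table sites (32.7%) were promoter sites, and 1 of the 35, at CSMD1, was higher in V16D/H19. Among the 79 sites at long noncoding RNAs, 34 carried a name that marks an antisense or divergent transcript of a neighbour, such as OTX2-AS1 (9.60 in V16D/CTL), HOXD-AS2 (9.05) and LHX2-AS1 (8.92). The lncRNA sites had a median difference of -0.49, 77 of the 79 were lower in V16D/H19, and 51 had an H3K4me3 peak in at least 1 library.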
